A study of Mus musculus with 10 samples.

Results

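The T helper 1 (Th1) axis was followed here through 10 genes in sorted mouse regulatory T (Treg) cells. They were the transcription factor genes Tbx21, Eomes and Runx3, the cytokine gene Ifng, and the receptor genes Ifngr1, Ifngr2, Il12rb1, Il12rb2, Il18r1 and Il18rap. The genes were taken by symbol from the deposited count table, which lists 55291 genes, and all 10 passed the filter on low counts that left 20068 genes for testing. RNA was sequenced from Treg cells of subcutaneous Hepa1-6 tumours, a mouse hepatoma line, taken on day 23 (Hepa1-6, n = 4 libraries), from Treg cells of subcutaneous E.G7 tumours, a mouse T lymphoma line derived from EL4, taken on day 21 (E.G7, n = 2), and from Treg cells of lymph nodes of mice without a tumour (LN, n = 4). All mice were of the Foxp3YFP-cre genotype, the LN mice included, in which cells that express Foxp3 carry a yellow fluorescent protein and Cre recombinase. The tumour Treg cells were sorted from isolated CD4+ T cells, and the stated question was whether they resemble a helper T cell subset. Tumour line and day of collection differ together between Hepa1-6 and E.G7, and tissue and tumour bearing differ together against LN, so that these cannot be told apart. Whether each replicate is a separate animal is not stated, and the spread behind every p-value is therefore that of these libraries alone and may be technical.

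In T cells, interleukin 12 and interleukin 18 from antigen-presenting cells raise T-bet, the product of Tbx21, and interferon gamma, the product of Ifng. Interferon gamma signals back through its own receptor and keeps the programme running. Treg cells can take up part of this programme while they keep Foxp3, and such T-bet-positive Treg cells are known for restraining Th1 responses.

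Total counts were 26224286 to 26665325 per library in Hepa1-6, 26585350 and 26663336 in E.G7, and 22665563 to 24472849 in LN. Levels below are CPM, counts relative to the library total, after TMM scaling, a scaling between libraries, unless TPM, which are also divided by gene length, are named. Differences are log2 fold changes from one edgeR quasi-likelihood fit to the 10 libraries, called at a Benjamini-Hochberg adjusted p under 0.05 over all genes tested. Foxp3 stood at 82.0 ± 11 CPM in Hepa1-6 (SD, n = 4), 50.2 ± 4.34 CPM in E.G7 (SD, n = 2) and 108 ± 10.8 CPM in LN (SD, n = 4). The tumour libraries also held transcripts typical of other cells, in both tumours above LN. The 10 macrophage and neutrophil markers summed to 3368 to 3712 CPM in Hepa1-6, 685 to 724 CPM in E.G7 and 24.7 to 36.0 CPM in LN. The 10 CD8 T and NK cell markers, genes of cells that make Tbx21, Eomes and Ifng transcripts themselves, summed to 522 to 563 CPM in Hepa1-6, 146 CPM in both E.G7 libraries and 29.5 to 34.4 CPM in LN.

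The starts of the genes with the largest differences are shown first. The sequences are the 250 bases before the RefSeq start (GRCm38.p6) of the 4 members with the largest fold changes of Hepa1-6 over LN, written 5′ to 3′ on the gene's strand. They are Il12rb2 (chr6:67376189-67376438, minus strand), Tbx21 (chr11:97115332-97115581, minus strand), Eomes (chr9:118477939-118478188, plus strand) and Ifng (chr10:118440796-118441045, plus strand). Capitals mark matches, on either strand, to the T-box half-site GTGTGA, to the STAT motif TTCNNNGAA or to the Runx motif TGTGGT.
Il12rb2: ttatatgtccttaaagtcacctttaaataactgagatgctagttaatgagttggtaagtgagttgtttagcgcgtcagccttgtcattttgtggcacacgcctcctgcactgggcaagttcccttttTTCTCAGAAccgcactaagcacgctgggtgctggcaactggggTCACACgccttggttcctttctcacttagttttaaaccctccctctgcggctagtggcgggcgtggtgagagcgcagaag
Tbx21: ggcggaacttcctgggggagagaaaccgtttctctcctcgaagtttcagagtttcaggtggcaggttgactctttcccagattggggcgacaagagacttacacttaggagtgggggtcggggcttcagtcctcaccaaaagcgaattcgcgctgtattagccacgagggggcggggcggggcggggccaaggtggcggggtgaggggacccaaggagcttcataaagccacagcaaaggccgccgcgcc
Eomes: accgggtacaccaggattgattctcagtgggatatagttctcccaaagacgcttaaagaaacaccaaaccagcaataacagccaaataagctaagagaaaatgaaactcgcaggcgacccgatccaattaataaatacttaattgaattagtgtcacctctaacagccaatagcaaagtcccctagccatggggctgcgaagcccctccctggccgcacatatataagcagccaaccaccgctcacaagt
Ifng: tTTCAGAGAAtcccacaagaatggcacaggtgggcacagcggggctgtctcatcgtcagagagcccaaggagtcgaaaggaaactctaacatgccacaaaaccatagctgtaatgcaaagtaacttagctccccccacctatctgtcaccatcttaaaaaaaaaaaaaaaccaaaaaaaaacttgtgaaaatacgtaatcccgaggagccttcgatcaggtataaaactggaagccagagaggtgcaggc
Of the 10 genes, 9 had an entry in the RefSeq promoter table, with 12 windows among them. T-bet and Eomes bind T-box half-sites, STAT proteins carry the signals of interleukin 12 and interferon gamma, and Runx3 binds the Runx motif. The window of Il12rb2 held a T-box half-site (TCACAC, 80 bases before the start) and a STAT match (TTCTCAGAA, 123 bases before it). The window of Ifng held a STAT match (TTCAGAGAA) 249 bases before the start, and those of Tbx21 and Eomes held none of the 3 motifs. Further matches stood in Runx3 (2 Runx matches, 126 and 134 bases before one of its starts) and Il18r1 (2 STAT matches, 152 and 219 bases before one of its starts). Among all 32851 windows of this length, 12.3% held the T-box half-site, 7.02% the STAT motif and 14% the Runx motif. The motifs did not overlap one another in these windows. A match describes these letters and no more.

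Of the 10 genes, 8 were higher in Hepa1-6 than in LN libraries and none was lower, with a median log2 fold change of 1.95. Among all 20068 genes tested, 68% were called, 37% as higher and 31.1% as lower, with a median of 0.04. In E.G7 against LN libraries, 8 were higher and 2 lower (median 1.33), where 59.9% of all genes were called, 32.7% as higher and 27.2% as lower (median 0.01). All 10 were higher in Hepa1-6 than in E.G7 libraries (median 0.67; 7 to 10 in the alternatives run), where 45.6% of all genes were called, 26.1% as higher and 19.6% as lower (median 0.06). In each comparison the genes that were called were also those whose libraries did not overlap. Without such overlap, 34.1% of all genes were higher and 27.6% lower in Hepa1-6 against LN, 36.6% higher and 32.6% lower in E.G7 against LN, and 31.9% higher and 26.2% lower in Hepa1-6 against E.G7. The comparisons share libraries, so that the counts are not independent of one another. These are bulk libraries, in which more cells of a type and more RNA per cell cannot be told apart.

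**Figure D1:**
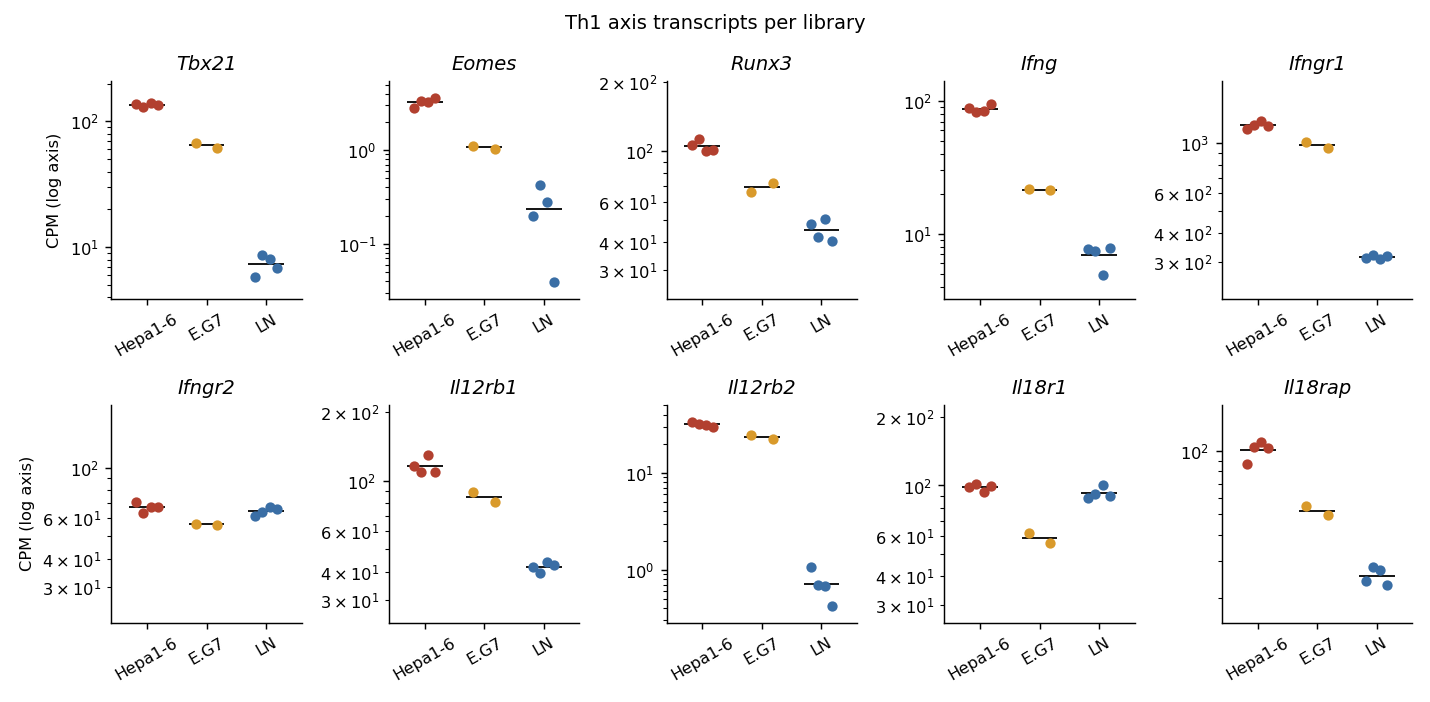
CPM on a log axis of the 10 Th1 axis genes in each library, with Hepa1-6 (n = 4), E.G7 (n = 2) and LN (n = 4) from left to right; each point is a library and each bar the group mean. Il12rb2 and Tbx21 stand far apart between tumour and LN libraries, while Ifngr2 and Il18r1 in Hepa1-6 lie over the LN libraries.

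Tbx21 encodes T-bet, the factor that defines Th1 cells (chromosome 11, 97098071 to 97115331, minus strand, mm10, 6 merged exons). It had 137, 131, 139.5 and 136 CPM in the 4 Hepa1-6 libraries, 67.5 and 62.0 CPM in the E.G7 libraries, and 5.85, 8.68, 8.03 and 6.91 CPM in the LN libraries. The groups did not overlap, and the spread within Hepa1-6 was 2.64% of its mean, against 16.9% in LN. The log2 fold change was 4.20 for Hepa1-6 against LN (18.4-fold, SE 0.099, edgeR adjusted p = 3.42e-15) and 3.14 for E.G7 against LN (8.79-fold, SE 0.11, edgeR adjusted p = 1e-12). Hepa1-6 libraries held 2.10-fold more Tbx21 than E.G7 libraries (log2 1.07, SE 0.11, edgeR adjusted p = 5.03e-07).

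Eomes encodes eomesodermin, a T-box factor related to T-bet that is best known from CD8 T and NK cells (chromosome 9, 118478212 to 118486132, plus strand, mm10, 6 merged exons). Its counts were low throughout. The Hepa1-6 libraries held 69, 80, 78 and 88 reads (2.82 to 3.63 CPM), the E.G7 libraries 30 and 28 reads (1.11 and 1.03 CPM), and the LN libraries 5, 11, 7 and 1 reads (0.04 to 0.42 CPM). The order of the groups was that of Tbx21, again without overlap, but the LN spread was 68.4% of its mean. Eomes rose 13.5-fold in Hepa1-6 against LN (log2 3.76, SE 0.39, edgeR adjusted p = 3.21e-07) and 4.48-fold in E.G7 against LN (log2 2.16, SE 0.46, edgeR adjusted p = 0.000789). Against E.G7, Hepa1-6 was 3.02-fold higher (log2 1.59, SE 0.41, edgeR adjusted p = 0.00467), though not past the threshold once E.G7 replicate 2 was left out (log2 1.53, adjusted p = 0.0541). A predicted gene on the opposite strand, Gm33460, shares 118 exonic bases with Eomes and had at most 11 reads in a library.

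Runx3 encodes a partner of T-bet at the Ifng gene (chromosome 4, 135120652 to 135177990, plus strand, mm10, 9 merged exons). It was present in all groups, at 106, 113, 99.9 and 101 CPM in Hepa1-6 libraries, 65.9 and 72.8 CPM in E.G7 libraries, and 47.8, 42.0, 50.4 and 40.4 CPM in LN libraries. Its steps were smaller than those of both T-box genes, and the groups did not overlap. Runx3 rose 2.33-fold in Hepa1-6 against LN (log2 1.22, SE 0.078, edgeR adjusted p = 9.14e-10) and 1.54-fold in E.G7 against LN (log2 0.62, SE 0.093, edgeR adjusted p = 2.92e-05). Between the tumours the log2 fold change was 0.60 (SE 0.096, edgeR adjusted p = 7.91e-05).

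Ifng encodes interferon gamma, the cytokine that Th1, CD8 T and NK cells secrete (chromosome 10, 118441046 to 118445892, plus strand, mm10, 3 merged exons). It had 88.2, 81.9, 84.0 and 94.2 CPM in Hepa1-6 libraries, 21.7 and 21.3 CPM in E.G7 libraries, and 7.67, 7.40, 4.86 and 7.77 CPM in LN libraries. LN replicate 3 stood below the other LN libraries, and the groups did not overlap. The 12.6-fold rise in Hepa1-6 against LN (log2 3.65, SE 0.12, edgeR adjusted p = 2.19e-13) exceeded the 3.10-fold rise in E.G7 against LN (log2 1.63, SE 0.14, edgeR adjusted p = 4.66e-08), and the difference between the tumours, 4.05-fold, was itself called (log2 2.02, SE 0.14, edgeR adjusted p = 1.02e-08). This was the largest difference between the tumours among the 10 genes. On the same strand, the predicted gene Gm49751 shares 336 exonic bases with Ifng. It had 143 to 213 reads in Hepa1-6, 37 to 56 in E.G7 and 91 to 117 in LN libraries. Ifng itself had 1980 to 2283 reads in Hepa1-6, 585 and 578 in E.G7 and 121 to 200 in LN libraries. Relative to Ifng, the reads of Gm49751 were thus most numerous in LN. The sources used here do not give how reads in the shared bases were assigned. The level of Ifng, above all in LN, and its fold changes against LN are therefore uncertain by such reads.

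**Figure D2:**
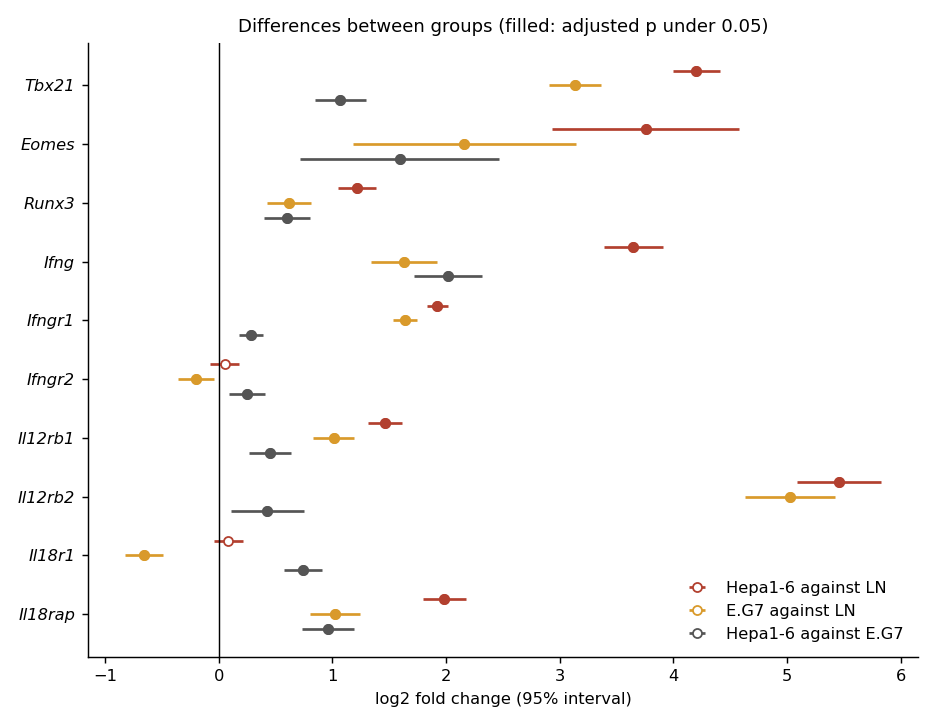
Log2 fold changes (horizontal axis) of the 10 Th1 axis genes in the 3 comparisons, with 95% intervals from the edgeR fit; filled points have an adjusted p under 0.05. The E.G7 points of Ifngr2 and Il18r1 lie below 0, and their Hepa1-6 against LN points are open and have intervals that cover 0.

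The interleukin 12 receptor pairs a shared chain, encoded by Il12rb1 and also used by the interleukin 23 receptor, with a chain that carries the STAT4 signal, encoded by Il12rb2. Il12rb1 (chromosome 8, 70808449 to 70821424, plus strand, mm10, 16 merged exons) had 116, 109, 129.97 and 109.6 CPM in Hepa1-6 libraries, 89.4 and 80.3 CPM in E.G7 libraries, and 41.8, 39.6, 44.1 and 42.8 CPM in LN libraries. Il12rb2 (chromosome 6, 67291318 to 67376188, minus strand, mm10, 17 merged exons) had 33.7, 31.7, 31.4 and 30.1 CPM in Hepa1-6 libraries, 24.9 and 22.3 CPM in E.G7 libraries, and 1.07, 0.694, 0.683 and 0.427 CPM in LN libraries, from 11 to 27 reads each. Both chains were higher in every tumour library than in every LN library, and the LN reads of Il12rb2 were few. Il12rb1 rose 2.76-fold in Hepa1-6 (log2 1.47, SE 0.071, edgeR adjusted p = 2.82e-11) and 2.02-fold in E.G7 against LN (log2 1.01, SE 0.083, edgeR adjusted p = 3.59e-08). Il12rb2 rose 43.9-fold in Hepa1-6 (log2 5.46, SE 0.17, edgeR adjusted p = 1.26e-13) and 32.7-fold in E.G7 against LN (log2 5.03, SE 0.19, edgeR adjusted p = 2.59e-12), the largest fold changes against LN among the 10 genes.

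Between the tumours, Il12rb1 was 1.37-fold higher in Hepa1-6 than in E.G7 libraries (log2 0.45, SE 0.086, edgeR adjusted p = 0.000389). For Il12rb2 the log2 difference was 0.43 (95% interval 0.11 to 0.75, edgeR adjusted p = 0.0294), and that call was lost without Hepa1-6 replicate 1 or 2 or either E.G7 library (adjusted p = 0.0557 to 0.23). It was also lost under upper-quartile scaling, scaling to pan T cell genes, no filter and log2(FPKM + 0.1) (adjusted p = 0.0602 to 0.0692). Of the 3794 exonic bases of Il12rb2, 1519 are shared with Serbp1 on the opposite strand, and the sources used here do not give whether counting used the strand. Serbp1 had 7768 to 8505 reads in Hepa1-6, 14609 to 15240 in E.G7 and 7699 to 8468 in LN libraries. Its level did not pass the test in Hepa1-6 against LN (log2 0.07, edgeR adjusted p = 0.21) and was higher in E.G7 than in LN libraries (log2 0.79, edgeR adjusted p = 4.52e-09). The part of Serbp1 reads in the Il12rb2 counts was not tested.

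The interleukin 18 receptor binds its ligand with the chain encoded by Il18r1 and signals once the accessory chain encoded by Il18rap has joined it. The genes lie next to each other on chromosome 1, Il18r1 from 40465552 to 40500854 and Il18rap from 40515362 to 40551705 (plus strand, mm10, 12 and 13 merged exons). Il18r1 had 98.1, 102, 93.5 and 99.1 CPM in Hepa1-6 libraries, 61.7 and 55.7 CPM in E.G7 libraries, and 88.0, 92.2, 100.2 and 89.5 CPM in LN libraries. Il18rap had 86.6, 105, 110.5 and 103 CPM in Hepa1-6 libraries, 54.6 and 49.4 CPM in E.G7 libraries, and 24.04, 28.1, 27.1 and 23.0 CPM in LN libraries. The accessory chain was higher in all tumour libraries, whereas the ligand-binding chain overlapped between Hepa1-6 and LN and lay below LN in E.G7.

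Il18rap rose 3.96-fold in Hepa1-6 against LN (log2 1.98, SE 0.089, edgeR adjusted p = 1.08e-11) and 2.03-fold in E.G7 against LN (log2 1.02, SE 0.1, edgeR adjusted p = 4.27e-07). Il18r1 did not pass the test in Hepa1-6 against LN, with a log2 difference of 0.09 (95% interval -0.04 to 0.22, edgeR adjusted p = 0.227). When libraries were scaled by pan T cell genes it was called higher there (log2 0.26, adjusted p = 0.00306). Under upper-quartile scaling its sign turned without a call (log2 -0.10). In E.G7 against LN, Il18r1 fell by 0.66 on the log2 scale (SE 0.077, edgeR adjusted p = 2.31e-06). Hepa1-6 stood above E.G7 for both genes, by 1.67-fold for Il18r1 (log2 0.74, SE 0.077, edgeR adjusted p = 9.74e-07) and by 1.95-fold for Il18rap (log2 0.96, SE 0.11, edgeR adjusted p = 2.2e-06).

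The interferon gamma receptor is built from a ligand-binding chain, encoded by Ifngr1, and a signalling chain, encoded by Ifngr2, whose level is known to set how strongly T cells respond. Ifngr1 (chromosome 10, 19591949 to 19610229, plus strand, mm10, 8 merged exons) had 1155, 1193, 1247 and 1187 CPM in Hepa1-6 libraries, 1008 and 953 CPM in E.G7 libraries, and 310.3, 323, 309 and 317 CPM in LN libraries. Ifngr2 (chromosome 16, 91547072 to 91565623, plus strand, mm10, 8 merged exons) had 70.6, 63.5, 67.3 and 67.3 CPM in Hepa1-6 libraries, 56.8 and 56.0 CPM in E.G7 libraries, and 61.7, 64.2, 67.0 and 66.2 CPM in LN libraries. Ifngr1 was far higher in every tumour library, while Ifngr2 overlapped between Hepa1-6 and LN. Ifngr1 rose 3.80-fold in Hepa1-6 (log2 1.93, SE 0.042, edgeR adjusted p = 1.57e-15) and 3.12-fold in E.G7 against LN (log2 1.64, SE 0.048, edgeR adjusted p = 1.99e-13).

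For Ifngr2 the log2 difference of Hepa1-6 against LN was 0.05 (95% interval -0.07 to 0.18, edgeR adjusted p = 0.449), called higher when libraries were scaled by pan T cell genes (log2 0.23, adjusted p = 0.00394) and of the other sign, uncalled, with upper-quartile scaling (log2 -0.13). In E.G7 against LN it was lower by a small margin (log2 -0.20, SE 0.073, edgeR adjusted p = 0.0281). That call was lost in 9 of 17 alternatives and turned with pan T cell scaling (log2 0.04, adjusted p = 0.688). Between the tumours, Ifngr1 was 1.22-fold higher in Hepa1-6 than in E.G7 libraries (log2 0.29, SE 0.051, edgeR adjusted p = 0.000214). The Ifngr2 difference between the tumours (log2 0.25, edgeR adjusted p = 0.0103) was lost in 7 of 17 alternatives.

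Ratios within a library do not depend on the scaling between libraries, and they were formed from counts per length for the receptor pairs and for both T-box genes. The ratio of Il12rb2 to Il12rb1 averaged 0.296 in Hepa1-6, 0.301 in E.G7 and 0.0181 in LN libraries. On the log2 scale it was -1.76 ± 0.13 in Hepa1-6 (SD, n = 4) and -5.79 ± 0.54 in LN (SD, n = 4), a difference of 4.03, or 16.4-fold. The ratio of Il18rap to Il18r1 was 3.72-fold higher in Hepa1-6 than in LN (log2 -0.45 ± 0.17 and -2.34 ± 0.11, SD, n = 4 each), and that of Ifngr1 to Ifngr2 3.66-fold higher (log2 4.56 ± 0.09 and 2.69 ± 0.06, SD, n = 4 each). Il12rb2 and Il18rap, the scarcer chains per length in LN, thus stood closer to their partners in Hepa1-6, while Ifngr1, already the more abundant chain in LN, stood further above Ifngr2. Each of these 3 differences had p = 0.0286 in a two-sided exact permutation test, the smallest that 4 against 4 libraries allow, and 0.0381 adjusted over the 4 ratios of the comparison.

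In E.G7 against LN libraries the log2 ratios differed by 4.06 for Il12rb2 to Il12rb1, 1.68 for Il18rap to Il18r1 and 1.84 for Ifngr1 to Ifngr2, with no overlap between libraries. Exact permutation p was 0.133 for each, the smallest that 2 against 4 libraries allow. Between Hepa1-6 and E.G7 these log2 ratios differed by -0.02, 0.21 and 0.04, with overlapping libraries. The ratio of Eomes to Tbx21 overlapped between Hepa1-6 and LN (log2 -6.12 ± 0.16 and -5.91 ± 1.17, SD, n = 4 each, exact permutation p = 0.771). Without LN replicate 4, which had a single Eomes read, its difference was -0.79 in place of -0.21 (exact permutation, adjusted p = 0.0571). Between Hepa1-6 and E.G7 it differed by 0.51 with no overlap (exact permutation p = 0.133).

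**Figure D3:**
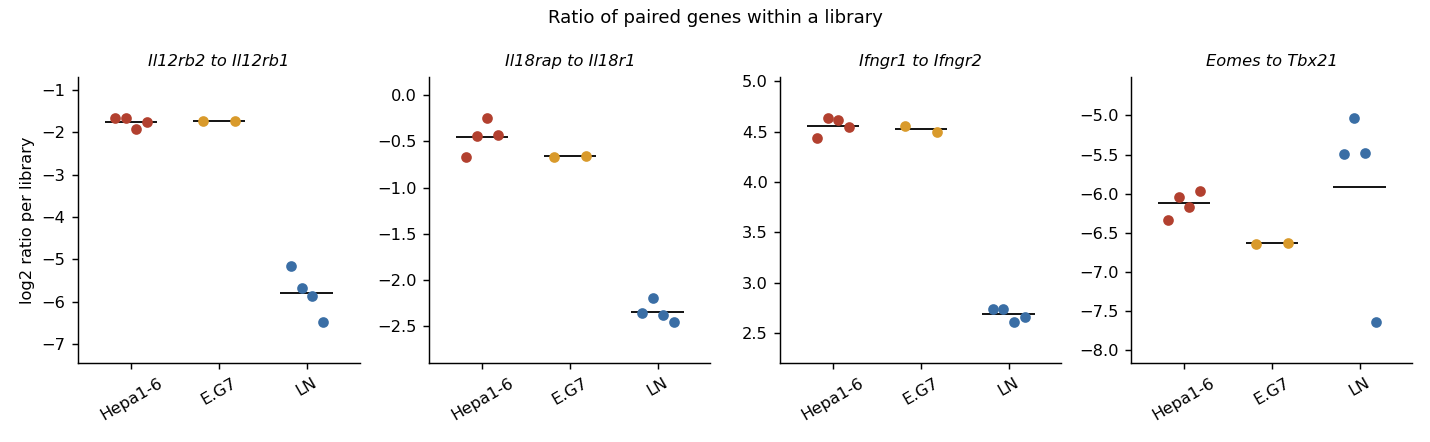
Log2 ratio of counts per length within each library (vertical axis, own scale per panel) for 3 receptor pairs and for Eomes to Tbx21, with Hepa1-6 (n = 4), E.G7 (n = 2) and LN (n = 4) from left to right and bars at the group means. For the receptor pairs every tumour library lies above every LN library; for Eomes to Tbx21 the LN libraries span -7.64 to -5.03.

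Set beside one another per length, the 10 genes kept Ifngr1 at the top and Eomes at the bottom in all groups, while the genes between changed places. In Hepa1-6, Ifngr1 stood at 1178 ± 45.6 TPM, followed by Ifng (188 ± 8.18), Tbx21 (153 ± 3.95), Il12rb1 (79.4 ± 7.04), Runx3 (58.9 ± 4.43), Il18r1 (57.1 ± 2.51), Ifngr2 (50 ± 2.13), Il18rap (42.0 ± 4.29), Il12rb2 (23.5 ± 1.46) and Eomes (2.19 ± 0.20 TPM, SD, n = 4). Of these neighbours, the libraries of Runx3 and Il18r1 overlapped. In E.G7, Ifngr1 (1056 ± 55.6 TPM) was followed by Tbx21 (79.9 ± 5.84), Il12rb1 (63.4 ± 5.64), Ifng (50.9 ± 1.45), Ifngr2 (45.9 ± 1.06), Runx3 (42.5 ± 2.42), Il18r1 (37.4 ± 3.19), Il18rap (23.6 ± 1.98), Il12rb2 (19.1 ± 1.71) and Eomes (0.792 ± 0.054 TPM, SD, n = 2). In LN, Ifngr1 (380.2 ± 7.88 TPM) was followed by Il18r1 (66.1 ± 5.68), Ifngr2 (59.2 ± 3.71), Il12rb1 (35.3 ± 2.81), Runx3 (31.1 ± 4.08), Ifng (18.3 ± 3.35), Il18rap (13.02 ± 1.25), Tbx21 (10.2 ± 1.68), Il12rb2 (0.65 ± 0.24) and Eomes (0.194 ± 0.129 TPM, SD, n = 4). In LN the libraries of Il18r1 and Ifngr2, of Il12rb1 and Runx3, and of Ifng and Il18rap overlapped. Ifng and Tbx21 thus stood among the highest 4 of the 10 genes in both tumours and among the lowest 5 in LN libraries.

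Genes known to work with the axis were taken from 7 lists with 57 genes in all, of which 56 were tested. In Hepa1-6 against LN libraries 37 of the 56 were higher and 9 lower, with a median log2 fold change of 1.01. In E.G7 against LN 28 were higher and 18 lower (median 0.32), and in Hepa1-6 against E.G7 41 were higher and 5 lower (median 0.54). Of all genes tested, 37% were higher and 31.1% lower in Hepa1-6 against LN, and 32.7% and 27.2% in E.G7 against LN. Between Hepa1-6 and E.G7 the shares were 26.1% and 19.6%. The counts by list below are to be read beside these shares. The ligands were few in reads. All 6 ligand genes were higher in both tumours than in LN. Il12b, which encodes a subunit shared by interleukins 12 and 23, had 269 reads in all in Hepa1-6, 228 in E.G7 and none in LN. It was at least 94.0-fold higher in Hepa1-6 and 143-fold higher in E.G7 than a floor of 3 reads over the LN group. The E.G7 libraries differed, with 160 and 68 reads (5.94 and 2.50 CPM), so that E.G7 replicate 2 alone gave at least 85.0-fold and lay below all Hepa1-6 libraries. Il12a, the other subunit gene of interleukin 12, averaged 0.772 ± 0.285 CPM in Hepa1-6 (SD, n = 4), 2.31 ± 0.795 CPM in E.G7 (SD, n = 2) and 0.0991 ± 0.0834 CPM in LN (SD, n = 4).

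Il23a, the interleukin 23 subunit gene, had 352 reads in Hepa1-6, 26 in E.G7 and 2 in LN, which gives ratios to LN of 185 (95% counting interval 50.7 to 1530) in Hepa1-6 and 24.5 (6.13 to 213) in E.G7. Il18 averaged 9.73 ± 1.56 CPM in Hepa1-6, 2.31 ± 0.167 CPM in E.G7 and 1.38 ± 0.404 CPM in LN (log2 2.82 in Hepa1-6 and 0.74 in E.G7 against LN, edgeR adjusted p = 7.41e-09 and 0.0237). The E.G7 call of Il18 was lost in 5 of 16 alternatives, among them without either E.G7 library. Ebi3, a subunit gene of interleukins 27 and 35, rose 1.66-fold in Hepa1-6 and 2.16-fold in E.G7 against LN. Dendritic cell markers, from cells known to make these ligands, summed to 8276 to 8731 CPM in Hepa1-6, 1514 to 1562 CPM in E.G7 and 154 to 177 CPM in LN libraries. Most of each sum came from Cd74, H2-Ab1 and H2-Aa. Of the 10 dendritic cell markers, 8 were higher in Hepa1-6 than in E.G7 and 2 did not pass the test. Flt3 stood at 12.4 CPM in Hepa1-6, 16.5 CPM in E.G7 and 0.336 CPM in LN, and Zbtb46 at 30.9, 27.5 and 8.14 CPM. The part of dendritic cells in the ligand levels was not tested.

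Of 9 signalling genes, 5 were higher and 3 lower in Hepa1-6 than in LN, and 2 were higher and 4 lower in E.G7 than in LN. Jak2, the kinase bound to the Ifngr2 and Il12rb2 chains, rose 2.83-fold in Hepa1-6 and 2.28-fold in E.G7 against LN (edgeR adjusted p = 5.25e-12 and 1.38e-09). Jak1, the kinase bound to the Ifngr1 chain, fell by 0.60 in Hepa1-6 and by 0.74 in E.G7 on the log2 scale (edgeR adjusted p = 1.78e-08 and 3.79e-08). Myd88, the adaptor of the interleukin 18 receptor, rose 1.496-fold in Hepa1-6 against LN (edgeR adjusted p = 1.33e-07). In E.G7 it stood at 87.9 ± 6.19 CPM (SD, n = 2) and in LN at 80.2 ± 3.06 CPM (SD, n = 4, edgeR adjusted p = 0.104). This Myd88 difference was called higher in E.G7 with RLE scaling, pan T cell scaling and DESeq2 (adjusted p = 0.000155 to 0.0369).

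Of the partner factors 8 of 9 were tested, and 5 were higher and 1 lower in Hepa1-6 than in LN, with 5 and 2 in E.G7. Bhlhe40, a factor that promotes Ifng and represses Il10 in Th1 cells, averaged 1754 ± 32.1 CPM in Hepa1-6, with 1676 ± 83.1 CPM in E.G7, against 72.6 ± 5.47 CPM in LN. The difference between the tumours did not pass the test for Bhlhe40 (log2 0.07, edgeR adjusted p = 0.423). Id2, an inhibitor of E proteins, rose 9.73-fold in Hepa1-6 and 5.96-fold in E.G7 against LN. Zeb2, a T-bet-induced factor of terminal effector cells that is also expressed in macrophages and dendritic cells, stood at 97.5 ± 3.604 CPM in Hepa1-6, 21.1 ± 1.53 CPM in E.G7 and 0.739 ± 0.363 CPM in LN.

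Among 14 receptors and effectors of Th1 cells, 11 were higher and 2 lower in Hepa1-6 than in LN, and 10 were higher and 3 lower in E.G7 than in LN. Of the chemokine genes, Ccl5 averaged 369 ± 21.2 CPM in Hepa1-6, 117 ± 9.67 CPM in E.G7 and 3.59 ± 0.398 CPM in LN. Ccl3 averaged 149.9 ± 8.63 CPM in Hepa1-6, 23.1 ± 0.34 CPM in E.G7 and 0.109 ± 0.0956 CPM in LN, from 11 reads in all in LN. Nkg7, a gene of cytotoxic granules, rose 17.7-fold in Hepa1-6 and 6.69-fold in E.G7 against LN (edgeR adjusted p = 3.6e-17 and 3.78e-14). Gzmb, the granzyme B gene, rose 59.5-fold and 30.8-fold. CD8 T and NK cells also express these granule genes. Cd8a stood at 130.3 ± 3.45 CPM in Hepa1-6, 22.8 ± 0.129 CPM in E.G7 and 2.27 ± 0.841 CPM in LN. Cd8b1 differed less, at 66.5 ± 4.74, 27.1 ± 2.80 and 16.1 ± 1.11 CPM in the same order.

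The brakes moved in both directions in both tumours, and the targets of the axis did so in E.G7 only. Of 6 brakes, 3 were higher and 2 lower in Hepa1-6 than in LN, with 1 and 3 in E.G7. Socs3, an inhibitor of JAK signals, rose 3.71-fold in Hepa1-6 and 2.22-fold in E.G7 against LN. Il18bp, the secreted decoy for interleukin 18, rose 3.58-fold in Hepa1-6 and was 1.63-fold lower in E.G7 than in LN, while Sigirr, a receptor that dampens interleukin 1 family signals, fell by 0.46 and by 0.63 on the log2 scale. Of 10 interferon gamma targets, 7 were higher and none lower in Hepa1-6, where 3 did not pass the test, and 4 were higher and 4 lower in E.G7 than in LN. Cxcl9 stood at 115 ± 8.08 CPM in Hepa1-6, 6.12 ± 1.43 CPM in E.G7 and 0.0889 ± 0.0593 CPM in LN, and Cxcl10 at 132 ± 4.31, 98.5 ± 3.72 and 11.5 ± 1.57 CPM in the same order. Ciita, the switch of MHC class II genes, which is also on the dendritic cell list, rose 43.9-fold in Hepa1-6 and 6.69-fold in E.G7 against LN. Gbp2, Gbp4, Igtp and Irgm2 stood below LN in E.G7 without overlap of libraries. They averaged 86.3, 213, 304 and 36.2 CPM in E.G7 and 165, 404, 365 and 86.9 CPM in LN. In Hepa1-6 they averaged 364, 385, 481 and 79.4 CPM.

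**Figure D4:**
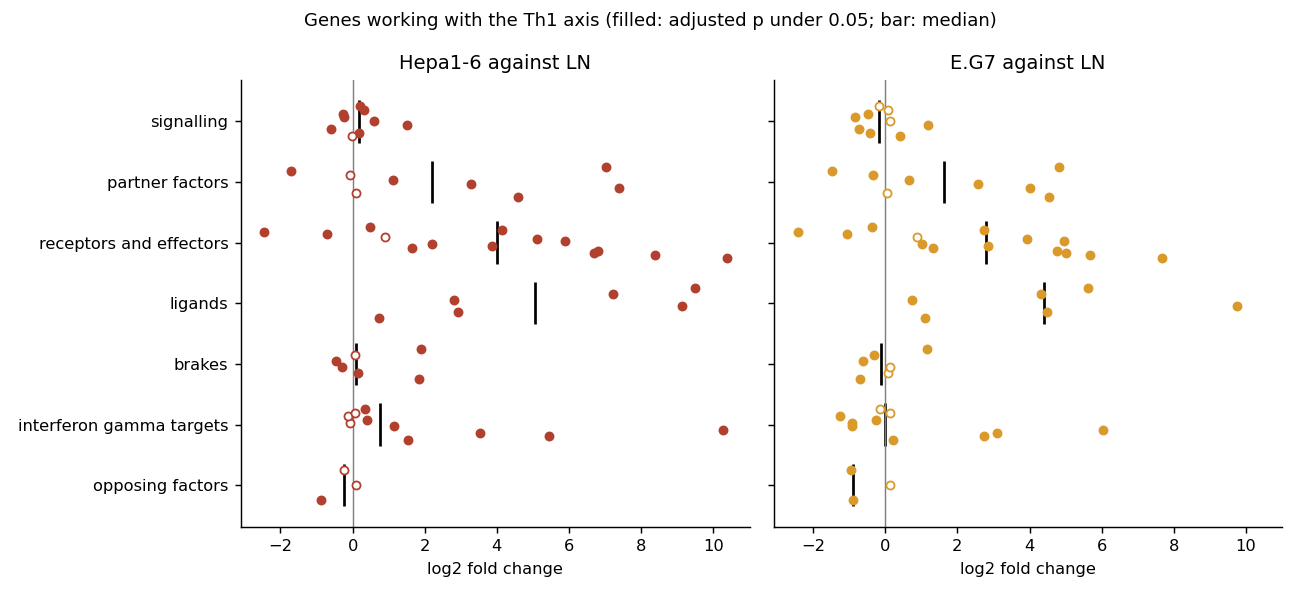
Log2 fold changes (horizontal axis) of the 56 tested genes that work with the Th1 axis, by list, for Hepa1-6 against LN on the left and E.G7 against LN on the right; filled points have an adjusted p under 0.05 and bars are list medians. The points of Il12b and Il27, which had no read in LN, are fitted values that depend on the prior count; all 6 ligand genes lie right of 0 in both panels.

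Of the factors of other helper subsets, Gata3 and Bcl6 are given here. Gata3, the Th2 factor, stood at 423 ± 14.0 CPM in Hepa1-6, 430.4 ± 20.3 CPM in E.G7 and 396 ± 17.8 CPM in LN, and neither tumour passed the test against LN (edgeR adjusted p = 0.0914 and 0.0887). Both differences of Gata3 passed it with RLE scaling, pan T cell scaling, DESeq2 and without LN replicate 4, each time as higher in the tumour. Bcl6, the follicular helper factor, fell by 0.88 in Hepa1-6 (edgeR adjusted p = 0.00324) and by 0.89 in E.G7 on the log2 scale (edgeR adjusted p = 0.0146). The E.G7 call of Bcl6 was lost without either E.G7 library and with pan T cell scaling.

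The genes whose levels followed 3 of the members most closely over the 10 libraries were ranked by Pearson's r of log2 CPM among 10183 genes. The libraries fall into 3 groups and share them with the comparisons above. Hence r mainly describes the order and spacing of the group levels and carries no test. For Tbx21 they were Plek (0.9994), Tiparp (0.9989), Atf3 (0.9988), Il1b (0.9988) and Ehd4 (0.9987). For Ifng they were Prf1 (0.9977), Pglyrp1 (0.9976), Fth1 (0.9972), Xbp1 (0.9967) and Ctsb (0.9967). For Eomes they were Plekhg1 (0.9887), Clec4n (0.9878), Sirpa (0.9856), Ly86 (0.9855) and Slfn4 (0.9849). Il1b, Clec4n, Sirpa and Ly86 are known as myeloid genes and Prf1 as a gene of CD8 T and NK cells. Il1b stood at 141.5 CPM in Hepa1-6, 17.4 CPM in E.G7 and 0.039 CPM in LN on average.

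Marker lists of other cells were set beside the axis. The 10 members summed to 1894 to 2007 CPM in Hepa1-6, 1374 to 1451 CPM in E.G7 and 588 to 612 CPM in LN. Of all genes tested, 37% were higher and 31.1% lower in Hepa1-6 than in LN, with 32.7% and 27.2% in E.G7. Of the 10 CD8 T and NK cell markers 9 were higher in Hepa1-6 and 8 in E.G7 than in LN. Among its killer cell receptor genes, Klrd1 stood at 54.1 ± 4.55 CPM in Hepa1-6, 16.7 ± 1.66 CPM in E.G7 and 0.305 ± 0.123 CPM in LN. Klrc1 stood at 45.5, 15.1 and 0.275 CPM, Klrk1 at 47.7, 12.7 and 0.235 CPM and Klre1 at 9.81, 1.78 and 0.00971 CPM in the same order. The NK cell receptor gene Klrb1c stood at 0.597 ± 0.215 CPM in Hepa1-6, 0.924 ± 0.255 CPM in E.G7 and 0.981 ± 0.244 CPM in LN, and the NK cell gene Ncr1 at 0.483 CPM, 0.111 CPM and 0 reads in the same order. All 10 macrophage and neutrophil markers and all 10 dendritic cell markers were higher in both tumours than in LN. Hepatoma markers summed to 2772 to 2816 CPM in Hepa1-6, 116 to 121 CPM in E.G7 and 7.71 to 10.03 CPM in LN. The E.G7 sum was nearly all Trf, at 115.1 ± 3.63 CPM in E.G7 and 1.82 ± 0.659 CPM in LN. Alb, Krt8 and Krt19 were at no more than 0.13 CPM on average in E.G7 and LN, and Afp was lower in E.G7 (1.96 ± 0.405 CPM) than in LN (6.47 ± 0.578 CPM).

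The immature thymocyte and T lymphoma list summed to 54.6 to 61.1 CPM in Hepa1-6, 86.0 to 101 CPM in E.G7 and 87.2 to 92.9 CPM in LN, with Rag1 at 0 in all libraries. Within it Dntt stood at 2.84 ± 0.172 CPM in Hepa1-6, 46.6 ± 4.50 CPM in E.G7 and 2.30 ± 0.393 CPM in LN. B cell markers summed to 20.5 to 25.7 CPM in Hepa1-6, 30.3 to 30.6 CPM in E.G7 and 19.5 to 24.04 CPM in LN. The 7 Treg and CD4 T cell markers summed to 4393 to 4539 CPM in Hepa1-6, 3570 to 3650 CPM in E.G7 and 3381 to 3535 CPM in LN, but most of the 7 genes were lower in the tumours. Of the 7, 2 were higher and 4 lower in Hepa1-6 against LN (median log2 fold change -0.24), and 2 were higher and 5 lower in E.G7 against LN (median -0.44). The sums were raised by Ctla4, a checkpoint receptor of Treg cells, at 1410 CPM in Hepa1-6, 1261 CPM in E.G7 and 410.2 CPM in LN, and by Tnfrsf18 at 652 CPM, 445 CPM and 287 CPM. These counts were made with TMM scaling, and Foxp3 was among the genes lower in both tumours. The part of RNA from other cells in the differences of Tbx21, Eomes, Ifng and the other members was not tested. With library sizes set instead by 12 pan T cell genes, the median of all genes shifted to 0.21 in Hepa1-6 and 0.25 in E.G7 against LN. The share of calls that were higher was then 64.1% in place of 54.3% for Hepa1-6 and 67.1% in place of 54.6% for E.G7. Pan T cell genes are not specific to Treg cells. The part of CD8 T cells or of E.G7 lymphoma cells in them was not tested.

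**Figure D5:**
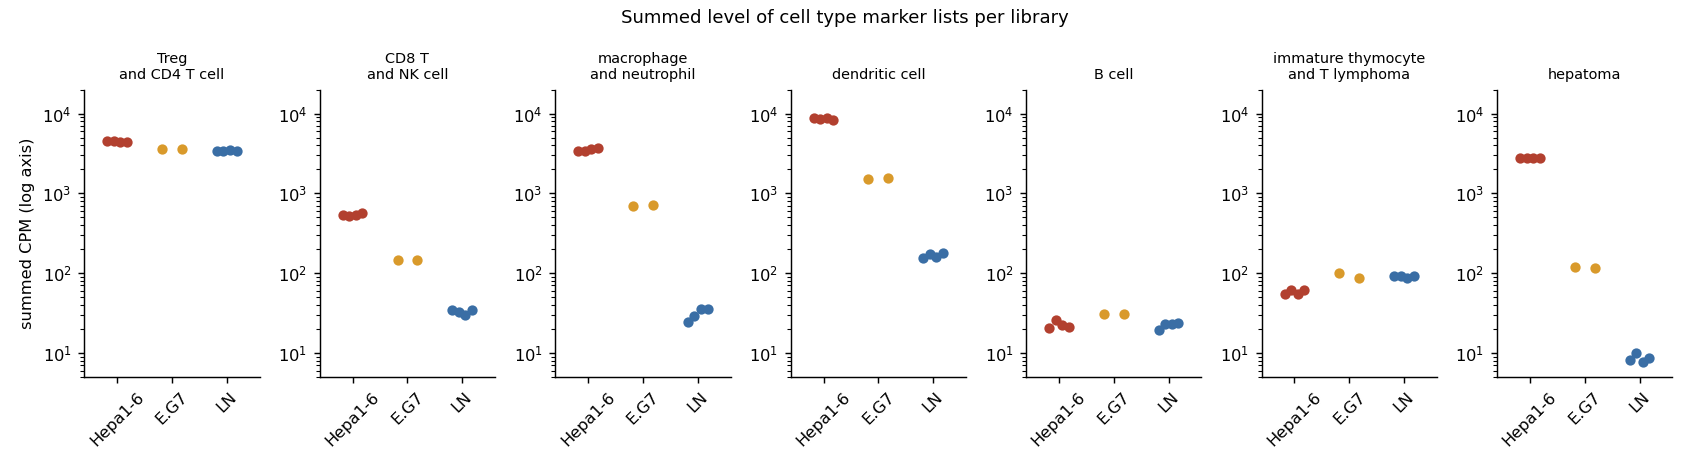
Summed CPM (log axis) of 7 cell type marker lists in each library, with Hepa1-6 (n = 4), E.G7 (n = 2) and LN (n = 4) from left to right. Sums of CD8 T and NK cell, macrophage and neutrophil, dendritic cell and hepatoma markers are highest in Hepa1-6, lower in E.G7 and lowest in LN. Most of the E.G7 hepatoma sum comes from Trf, and most of each dendritic cell sum from Cd74, H2-Ab1 and H2-Aa. The sum of the Treg and CD4 T cell markers differs less, although most of these 7 genes were lower in the tumours than in LN.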

How the data were processed

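RNA was measured in 10 libraries of sorted Treg cells, extracted with TRIzol and sequenced on a BGISEQ-500, per the labels' protocols. The authors' count table gives whole read counts for each gene, with its exon positions and length as featureCounts writes them, per the file headers. The authors also deposited FPKM values for 12930 genes per library, which are the counts scaled by gene length and a library size of 24336121 to 27401130. The submitters' processing notes name HISAT2, featureCounts, Subread, RSEM, DESeq2 and the build mm10. Versions, the annotation release and the strand setting are not given in the sources used here.

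The counts were fitted with edgeR 4.0.16 under R 4.3.3 (filterByExpr, TMM, robust quasi-likelihood fit with a term per group), with Benjamini-Hochberg adjustment over 20068 genes and a threshold of 0.05. The biological coefficient of variation was 13.0%. SE is the log2 fold change over the square root of F. CPM and TPM were computed from the counts. A fold against a group without reads uses a floor of 3 counts over the group, and floors and intervals cover counting error only. Ratios used a prior count of 0.5 and a two-sided exact permutation test. Libraries of a group differed by more than sampling noise (chi-square per degree of freedom 7.41 to 18.9), so none was merged. The fit was tested on simulated data. Promoters came from the RefSeq table of GRCm38.p6; Il12rb1 is named only.

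Groups were taken from the titles. All 10 members were named. From each list of genes that work with the axis, the 3 with the smallest adjusted p in each tumour against LN were named, and the list of opposing factors; 2 of the genes so chosen are not reported here. The genes most like Tbx21, Ifng and Eomes were the 5 with the highest r among those with a mean of at least 5 CPM (prior count 2), without predicted genes, pseudogenes and receptor segments. Members, lists and ratios were chosen with earlier results of these data known. Alternatives were RLE, upper-quartile and pan T cell scaling, no filter, a filter of 10 CPM in 2 libraries, DESeq2 1.42.0, limma-voom (limma 3.58.1), only the groups compared, a replicate block, limma on log2(FPKM + 1) and log2(FPKM + 0.1), and each library left out; for the ratios, prior counts of 0 and 2 and the deposited FPKM.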

Additional observations from a re-analysis of the deposited data

Results flagged for a closer look

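The level of Ifng in LN replicate 3 stood apart from the other LN libraries, at 4.86 CPM where the others had 7.40 to 7.77 CPM. Its gap to the nearest of them was 0.874 of the range of the group, above the 95% critical value of Dixon's test for 4 libraries. Of 20 groups of 4 libraries examined over the 10 genes this was the 1 marked, and chance marks about 1 in 20. Without that library the log2 fold change of Ifng was 3.51 in Hepa1-6 against LN (edgeR adjusted p = 6.18e-14) and 1.49 in E.G7 against LN (edgeR adjusted p = 6.67e-09).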

How the results depend on the processing

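In Hepa1-6 against LN the 8 members called higher stayed so under every alternative run for them. In E.G7 against LN the count of members lower was 1 in place of 2 with RLE scaling, pan T cell scaling, no filter, only the groups compared and DESeq2, and 1 to 2 when each library was left out, since the Ifngr2 call was lost. Its difference reversed with pan T cell scaling, to 0.0376 on the log2 scale. Genes working with the axis that were lower numbered 14 in place of 9 in Hepa1-6 against LN with upper-quartile scaling, and 3 in place of 5 in Hepa1-6 against E.G7 with the 10 CPM filter, where fewer genes were tested. That filter left 4294 genes higher and 4129 lower in Hepa1-6 against LN (7419 and 6237 without it) and 4050 higher in E.G7 against LN (6554). Upper-quartile scaling gave 45% of calls higher for Hepa1-6 and 48.3% for E.G7 against LN.

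In Hepa1-6 against E.G7 the count of members higher was 8 in place of 10 with upper-quartile scaling, pan T cell scaling and no filter, 8 without E.G7 replicate 1 and 7 without E.G7 replicate 2.

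Same-numbered replicates did not deviate together over all genes (r -0.05 to 0.03), so that no pairing by number was seen. A pairing that touches few genes would not show in such an r. With the replicate block, 1 member in place of 2 was lower in E.G7 against LN and 9 in place of 10 were higher in Hepa1-6 against E.G7, Ifngr2 being lost each time.

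With a library left out, the log2 ratio differences of Hepa1-6 against LN ranged from 3.81 to 4.25 for Il12rb2 to Il12rb1, 1.83 to 1.97 for Il18rap to Il18r1 and 1.85 to 1.91 for Ifngr1 to Ifngr2. Their adjusted p was then 0.0571 to 0.0762, because 3 against 4 libraries cannot pass the threshold even before adjustment. Against LN, log2(FPKM + 1) gave smaller fold changes for the lowest members, 0.75 for Eomes and 2.97 for Il12rb2 in Hepa1-6. Depth limits Eomes and Il12rb2 in LN, with 24 and 73 reads in all.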

Other observations

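The predicted gene Gm49751, which shares exonic bases with Ifng on the same strand, moved against Ifng in E.G7 against LN but with it between the tumours. It stood at 6.99 ± 1.30 CPM in Hepa1-6 (SD, n = 4), 1.72 ± 0.509 CPM in E.G7 (SD, n = 2) and 3.89 ± 0.451 CPM in LN (SD, n = 4). It was 1.80-fold higher in Hepa1-6 than in LN (edgeR adjusted p = 0.000848) and 2.25-fold lower in E.G7 than in LN (edgeR adjusted p = 0.000959), where Ifng was 3.10-fold higher. In Hepa1-6 against E.G7 it was 4.05-fold higher (log2 2.02, edgeR adjusted p = 8.6e-06), the same fold as Ifng at 4.05. Gm49751 was named after its values were seen.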
